A study of Homo sapiens with 2 samples.

Results

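The UGT1A cluster on chromosome 2 and the UGT2B cluster on chromosome 4 hold most of the human genes for UDP-glucuronosyltransferases, and they are described here by the intervals in which LSD2 chromatin immunoprecipitation (ChIP) exceeded input DNA in HepG2 cells. An interval was a member when its midpoint lay at 234526291 to 234681951 on chromosome 2 or at 69402902 to 70391732 on chromosome 4 (hg19). Of 370863 distinct intervals in the deposited list, 187 were members, with 21 in the UGT1A cluster and 166 in the UGT2B cluster. Members were chosen by the position of the midpoint, and the clusters themselves were picked with the density, width and line number of these intervals known, so those values are given as descriptions, without tests. HepG2 is a hepatocyte-like human liver tumour line, grown here with 25 mM glucose and 10% serum and no other treatment. Chromatin was precipitated with a rabbit polyclonal antibody to residues 26 to 822 of LSD2, the flavin-dependent histone H3 demethylase encoded by KDM1B, and input was DNA without precipitation. There was 1 library of each kind, so no value below has a replicate error. Intervals on counts and shares cover counting error only and treat neighbouring peaks as independent.

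UDP-glucuronosyltransferases sit in the membrane of the endoplasmic reticulum and join glucuronic acid to small lipophilic molecules, which makes them soluble enough for bile or urine. UGT1A1 conjugates bilirubin and is the main enzyme for it in liver, UGT1A6 prefers small planar phenols, and UGT1A8 and UGT1A10 are known mainly from the gut. UGT2B7 conjugates morphine and other opioids as well as steroids, UGT2B17 conjugates androgens, and UGT2B4 conjugates bile acids. The loci are built differently. In UGT1A, each gene has its own promoter and first exon and all of them splice to the same set of shared exons at the end of the locus. In the UGT2B cluster each gene has a full set of exons of its own.

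The RefSeq gene table, which is on GRCh38.p14 and was used for names and order only, lists 9 protein-coding UGT1A genes that end at the same position. Their starts come in the order UGT1A8, UGT1A10, UGT1A9, UGT1A7, UGT1A6, UGT1A5, UGT1A4, UGT1A3 and UGT1A1, and UGT1A1 therefore lies nearest to the shared exons. For the UGT2B cluster the table lists 8 protein-coding genes in the order UGT2B17, UGT2B15, UGT2B10, UGT2A3, UGT2B7, UGT2B11, UGT2B28 and UGT2B4, with 5 UGT2B and UGT2A pseudogenes among them. All 7 genes named for the clusters were found in the table. Exons and start sites were not placed on hg19 here. Position within a cluster is therefore given as distance from its bounds, which are the ends of the outermost genes.

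Start regions of 13 of the 17 genes could be read from the RefSeq promoter sequences (GRCh38.p14, 250 bases before to 50 after a start). The genes without an entry were UGT1A10, UGT2B17, UGT2B28 and UGT2B4. These sequences show which genes of a cluster resemble each other at their starts and which do not. The 8 UGT1A genes with an entry gave 9 promoters, since UGT1A6 was listed with 2 starts, which were 48.3% identical to each other. Among 36 pairs of UGT1A promoters, identity in a global alignment ran from 47.2% to 89.7% with a median of 50.1%, and 4 pairs were above 70%. Unrelated sequences were not aligned for comparison. Those 4 were UGT1A9 with UGT1A7 and the pairs among UGT1A5, UGT1A4 and UGT1A3. UGT1A6 and UGT1A1 had start regions unlike the rest. UGT1A1 was at most 52.3% identical to any of them. Among 10 pairs in the UGT2B cluster identity ran from 50.6% to 90.1%, the highest being UGT2B10 with UGT2B11, which shared a run of 64 identical bases. No pair of these start regions shared an identical run as long as the read length of 120 bp in the peak caller's settings. The rest of the genes and the pseudogenes were not compared, so this does not show how reads were placed. The most alike pair that includes a named member is printed for each cluster, with the longest run shared by the pair in capitals. UGT1A8 (chr2:233617383-233617682, plus strand) and UGT1A9 (chr2:233671648-233671947, plus strand) were 65.5% identical and share 31 bases. UGT2B15 (chr4:68670603-68670902, minus strand) and UGT2B7 (chr4:69096224-69096523, plus strand) were 65.4% identical and share 18 bases. These 4 positions are on GRCh38.p14 and cannot be set beside the hg19 positions of the peaks.
UGT1A8: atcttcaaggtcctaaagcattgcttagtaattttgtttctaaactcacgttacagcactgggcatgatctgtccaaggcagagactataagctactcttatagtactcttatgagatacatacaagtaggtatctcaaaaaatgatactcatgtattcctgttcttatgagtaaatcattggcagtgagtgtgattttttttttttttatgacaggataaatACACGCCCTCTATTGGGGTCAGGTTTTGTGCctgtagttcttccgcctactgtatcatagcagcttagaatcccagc
UGT1A9: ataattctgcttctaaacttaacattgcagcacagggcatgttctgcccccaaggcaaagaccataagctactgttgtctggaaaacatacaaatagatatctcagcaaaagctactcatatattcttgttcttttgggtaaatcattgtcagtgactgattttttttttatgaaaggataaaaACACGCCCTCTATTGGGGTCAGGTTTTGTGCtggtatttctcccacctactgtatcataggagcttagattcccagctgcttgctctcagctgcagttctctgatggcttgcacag
UGT2B15: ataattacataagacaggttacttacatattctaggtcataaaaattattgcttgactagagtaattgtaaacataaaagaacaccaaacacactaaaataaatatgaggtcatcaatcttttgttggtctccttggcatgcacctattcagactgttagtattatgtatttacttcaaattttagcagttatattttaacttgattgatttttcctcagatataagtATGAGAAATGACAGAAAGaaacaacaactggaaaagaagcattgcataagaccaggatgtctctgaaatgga
UGT2B7: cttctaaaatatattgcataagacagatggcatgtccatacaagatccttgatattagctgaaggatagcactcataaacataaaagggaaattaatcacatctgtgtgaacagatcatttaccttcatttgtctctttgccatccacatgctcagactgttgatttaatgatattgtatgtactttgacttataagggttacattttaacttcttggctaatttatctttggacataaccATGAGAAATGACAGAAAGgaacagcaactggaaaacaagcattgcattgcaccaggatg

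LSD2 intervals in the UGT1A cluster had about the density and width of the whole list and differed from it in how often each was repeated. The 21 intervals filled 126 lines, a mean of 6.0 lines each, and 19 of them (90.5%, Wilson 95% interval 71.1% to 97.4%) were on more than 1 line. In the whole list 10.1% of intervals were repeated, and on chromosome 2 it was 8.85%. Repeats were also rarer in the flanks of 500 kb. Before the cluster 16 of 110 intervals were repeated, with at most 3 lines, and after it 3 of 60, with at most 2 lines. The position and width of a repeated interval are identical on each of its lines, and the deposited list gives no field that tells the lines apart.

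The number of lines climbed along the UGT1A locus from the UGT1A8 side to the side of the shared exons. The first 2 intervals, at 234528216 to 234528365 and 234530675 to 234530870, were each on 1 line, as was the last interval before the cluster, at 234525865 to 234526071. Next came 1 interval on 2 lines 36.8 kb from the cluster start, and a second, at 47.4 kb, was the 568 bp interval at 234573384. The 3 intervals between 49.3 and 55.4 kb had 3 lines each. A pair at 74.9 and 75.5 kb had 5 lines each, and 3 intervals between 78.8 and 86.1 kb had 6 each. From 108.0 kb onward all 9 intervals had at least 8 lines. Their numbers in order were 9, 9, 8, 11, 9, 9, 9, 9 and 10. The first interval after the cluster, at 234687621 to 234687768, was again on 1 line. Across the 20 steps from one interval to the next the number rose at 7, stayed equal at 11 and fell at 2.

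**Figure D1:**
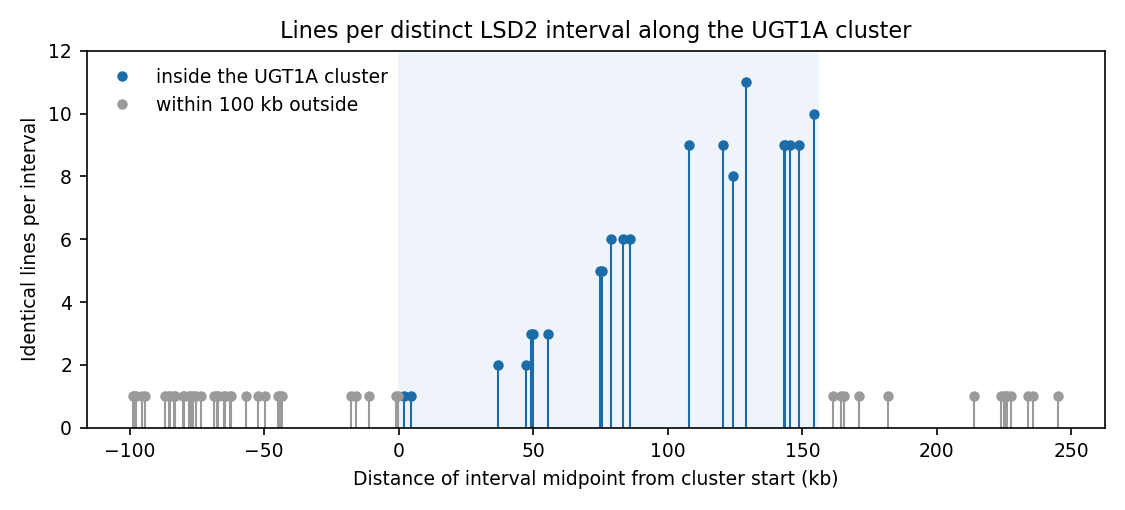
Number of identical lines (vertical axis) of each distinct LSD2 interval against the distance of its midpoint from the start of the UGT1A cluster in kb (horizontal axis). Blue points are the 21 members, grey points are intervals within 100 kb outside the cluster, and the shaded band is the cluster. The members climb from 1 line at the UGT1A8 side to between 8 and 11 lines from 108.0 kb onward, and the grey points next to the cluster are at 1.

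The level of 9 lines, found at 6 of the 21 intervals, equals the number of protein-coding UGT1A genes that end together in the gene table. The climb runs in the direction in which the starts of these nested genes follow each other. Another 2 intervals were on 10 and 11 lines, above that number. The level did not follow position alone. It was reached already at 108.0 and 120.4 kb, before the last of the 10 parts, and intervals on 8 and 11 lines came next. Starts were not placed on hg19, so how many of these genes span a given interval is not known here. No source used here says how the repeated lines arose, and this was not tested. The list gives no score, so line number could not be set beside the strength of the LSD2 signal. Line number is described here as a property of the list and is not read as a measure of binding. Intervals on 8 or more lines were rare elsewhere. The whole list held 47 (0.0127%), and the UGT1A cluster held 9 of them, or 19.1%. Another 32 lay on chromosome 5 between 140218119 and 140870409, which is where the protocadherin clusters lie, genes that in the alpha and gamma clusters also join variable first exons to shared exons. Of the remaining 6, 5 were on chromosome 11 and 1 was on chromosome 2, at 239992348 to 239992713. At 5 or more lines the share was 14 of 21 in the UGT1A cluster (66.7%) against 0.0415% of the whole list.

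Counted once each, the UGT1A intervals were less dense than those of the flank before and about as dense as those of the flank after. The cluster had 134.9 intervals per Mb (exact Poisson 95% interval 83.5 to 206), against 220 per Mb (181 to 265) in the flank before it and 120 per Mb (91.6 to 155) in the flank after it. The ratio was 0.61 (exact 95% interval 0.37 to 0.98) to the flank before, 1.12 (0.65 to 1.88) to the flank after and 0.79 (0.48 to 1.25) to both together. The flanks themselves stood at a ratio of 1.83 (1.33 to 2.56), and the flank before the cluster was raised by 26 intervals within 50 kb, from 100 to 50 kb before UGT1A8. Chromosome 2 as a whole was dense in this list, at 177 intervals per Mb, and the cluster stood at 0.76 times that (0.47 to 1.17) and at 1.04 times the whole list (0.64 to 1.59). Of 1534 adjoining windows of the same 155.7 kb on chromosome 2, 28.7% held 21 intervals or fewer, and of 18357 such windows in all, 61.5% did. Counting every line in place of every distinct interval turned the ratio to the flanks into 4.24. Identical lines are not independent counts, so no counting interval is given for that ratio. The low and the high ratio come from the same 21 positions.

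Within the UGT1A cluster the intervals were unevenly placed, with gaps of about the usual length for this list. Cut into 10 equal parts of 15.6 kb, the cluster held, from the UGT1A8 end, 2, 0, 1, 4, 2, 3, 1, 2, 1 and 5 intervals. The last part, at the end of the locus where the shared exons lie, held the most. Its density was 321 per Mb (104 to 750) against 114 per Mb over the other 9 parts, a ratio of 2.81 whose interval ran from 0.81 to 8.03 and so included 1. By lines in place of intervals the ratio was 5.17, since the last part holds intervals on 9 and 10 lines. No counting interval is given for the ratio by lines. As exons were not placed, the last part can hold the first exon of UGT1A1 as well, and these values do not compare shared with variable exons. The 5 intervals of the last part were short, with a median of 155 bp, and they lay 12.5, 12.1, 10.4, 6.8 and 1.2 kb before the cluster end. The first 2 of them, at 234669335 to 234669563 and 234669741 to 234669895, were 177 bp apart, the closest pair in the cluster.

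The longest stretch without an interval ran for 32.1 kb from 234530871 to 234563019, between 4.6 and 36.7 kb from the UGT1A8 end. Further stretches of 21.8 kb, from 234612451 to 234634203, and 19.2 kb, from 234581836 to 234601080, followed at 86.2 and 55.5 kb. Gaps as long as these were uncommon but not rare, since 2.70%, 6.80% and 8.72% of the 370839 gaps in the whole list were at least as long. They were picked as the 3 longest of 20 gaps, so the shares do not mark them as unusual. Gaps under 1 kb made up 3 of 20 in the cluster (15.0%), against 37.6% in the flank before, 11.9% in the flank after and 17.4% in the whole list. The median gap was 3927 bp in the cluster and 4218 bp in the whole list. The densest 10 kb began 140 kb from the cluster start and held 4 intervals, and 6 of 16 such bins held none.

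The UGT1A intervals had the widths usual for this list. Their median was 174 bp (95% interval of the median 153 to 264 bp) with quartiles of 153 and 264 bp, against 217 bp in the flank before, 170 bp in the flank after, 187 bp on chromosome 2 and 173 bp in the whole list. The 5 widest were 677 bp at 234604737 to 234605413, 568 bp at 234573384 to 234573951, 486 bp at 234650370 to 234650855, 377 bp at 234674951 to 234675327 and 297 bp at 234581539 to 234581835. The 3 that reached 400 bp made up 14.3% (4.98% to 34.6%), against 7.89% in the whole list, and that interval includes the background. Together the 21 intervals covered 5159 bp, or 3.31% of the cluster, against 5.76% and 2.76% of the flanks. Repetition did not single out the wide ones. The 14 intervals on 5 or more lines had a median width of 177.5 bp and the 7 on fewer lines had 157 bp. The interval with the most lines, 11, was 181 bp wide, at 234655323 to 234655503.

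Repeated intervals were about as few in the UGT2B cluster as on chromosome 4 as a whole. Of its 166 intervals 157 were on 1 line and 9 (5.42%, 2.88% to 9.98%) were on 2 lines, and none had more. On chromosome 4 the repeated share was 6.56%. In the flanks it was 11 of 89 before and 4 of 91 after. Of the 9 intervals on 2 lines, 2 lay near 347 kb from the cluster start, 2 between 484 and 490 kb and 2 near 642 kb. The others lay singly at 531.2, 668.7 and 848.5 kb. Their widths ran from 145 bp to 408 bp.

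Density in the UGT2B cluster was close to that of its flanks and higher than that of chromosome 4. The cluster had 167.9 intervals per Mb (143 to 195), the flank before 178 (143 to 219) and the flank after 182 (147 to 224). The ratio to both flanks was 0.93 (0.75 to 1.16). Chromosome 4 had 130 intervals per Mb, and the cluster stood at 1.29 times that (1.10 to 1.50) and at 1.30 times the whole list (1.11 to 1.51). Both flanks were above the chromosome as well. Of 189 windows of 989 kb on chromosome 4, 87.8% held 166 intervals or fewer, and of 2870 such windows in all, 80.2% did. The UGT1A and UGT2B densities differed by a ratio of 0.80 (0.48 to 1.27), which includes 1.

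**Figure D2:**
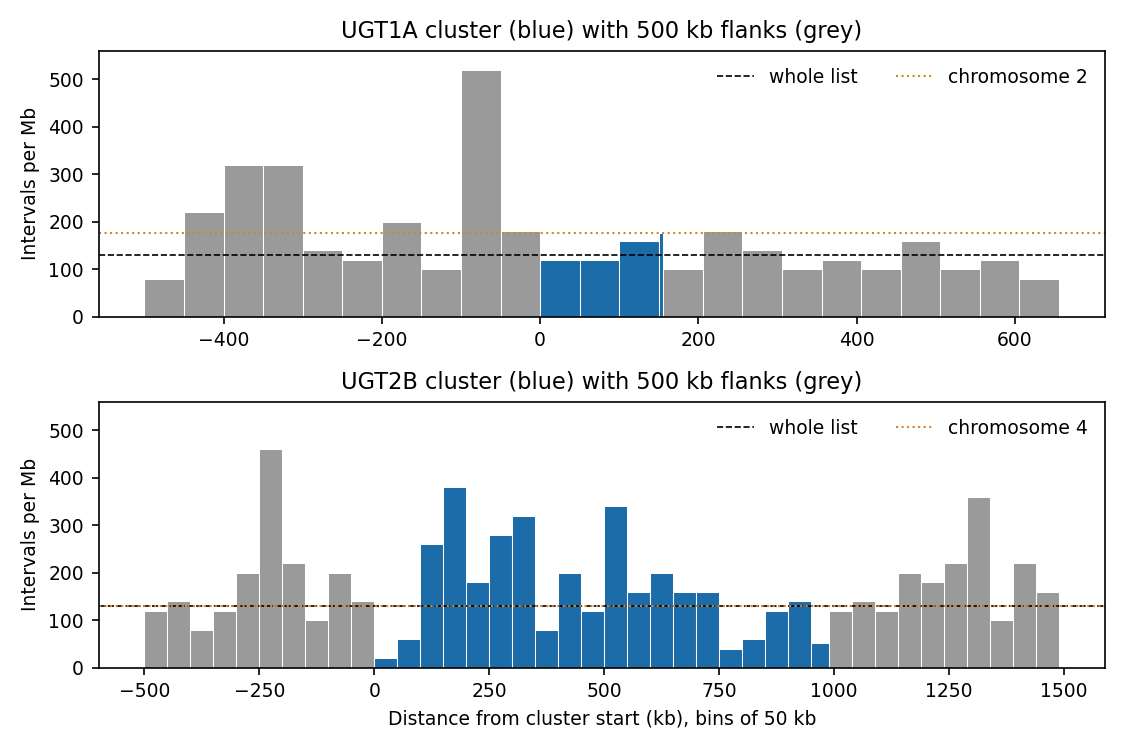
Distinct LSD2 intervals per Mb (vertical axis) in bins of 50 kb against distance from the cluster start in kb (horizontal axis), with the UGT1A region above and the UGT2B region below. Blue bars are the cluster, grey bars are the 500 kb flanks, the dashed line is the whole list and the dotted line is the chromosome. No UGT1A bar rises above chromosome 2, the last being a narrow remainder of 5.66 kb with 1 interval, and the UGT2B bars stand for 1 and 3 intervals in the first 2 bins and for 2 to 7 intervals in each bin from 750 kb onward.

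Inside the UGT2B cluster the intervals were scarce in the first part, at the UGT2B17 end, most numerous in the part next to it and fewer again over the last 3 parts, toward UGT2B4. In 10 equal parts of 98.9 kb the cluster held, from the UGT2B17 end, 4, 30, 24, 21, 16, 23, 19, 10, 8 and 11 intervals. Parts 2 to 7 held 133 of the 166 (80.1%). Density was 303 per Mb (205 to 433) in the second part, against 40.5 per Mb (11.02 to 104) in the first, 80.9 per Mb (34.9 to 159) in the ninth and 111 per Mb (55.5 to 199) in the last. The last part stood at 0.64 times the other 9 together (0.31 to 1.18), an interval that includes 1. The first and the second part were the sparsest and the densest of the 10, so their counting intervals are not read as a test of a difference. These parts were compared after their counts had been seen, and copy number and the placement of reads among similar genes were not measured here.

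Empty stretches lay at both bounds. No interval was found in the first 45.8 kb of the cluster, from 69402902 to 69448673, the end that begins with UGT2B17, and with the sequence before the bound the stretch came to 49.0 kb. The first interval inside, 143 bp at 69448674 to 69448816, was followed by only 3 more before 98.9 kb. At the other end no interval lay in the last 34.4 kb, from 70357343 to 70391732, where UGT2B4 ends the cluster, and with the sequence after it the stretch was 37.7 kb. The last interval inside was 152 bp wide, at 70357191 to 70357342. Another stretch, of 39.2 kb from 70197939 to 70237120, lay between 795.0 and 834.2 kb. In the whole list 0.822% of gaps were at least as long as the 49.0 kb stretch, 1.75% as the 37.7 kb stretch and 1.58% as the 39.2 kb stretch. These stretches were picked as the 3 longest of a cluster with 165 gaps between its intervals, so the shares do not mark them as unusual. An empty stretch shows that no region passed the caller's cutoff there, and how deeply either library was sequenced is not known here.

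The densest 10 kb of the UGT2B cluster held 8 intervals, at 69592902 to 69602901, and 23 of 99 such bins held none. The longest series of intervals less than 2 kb apart had 6 members, and there were 2 of them, over 4.82 kb from 69596339 to 69601156, which is the densest place, and over 6.57 kb from 69724386 to 69730958. The flank before the cluster had a longer one, of 11 intervals from 69193665 to 69206180, and the flank after had one of 7. Gaps under 1 kb made up 24.2% (18.3% to 31.3%) of those in the cluster, close to 25.0% and 24.4% in the flanks and above the 17.4% of the whole list.

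UGT2B intervals had a higher median width than the flanks and the chromosome, by less than its own interval. This median was 221.5 bp (95% interval of the median 168 to 257 bp), with quartiles of 154 and 332 bp, against 174 bp and 196 bp in the flanks before and after, 169 bp on chromosome 4 and 173 bp in the whole list. Intervals of at least 400 bp numbered 20 (12.05%, 7.94% to 17.9%), against 8.99% and 9.89% in the flanks, 5.90% on chromosome 4 and 7.89% in the whole list. Short intervals, under 170 bp, made up 42.2% of the cluster and 48.2% of the whole list.

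The order of the parts by median width was not their order by density. The densest parts, 2 and 3, had medians of 191 and 163 bp, and the sparsest, 1 and 9, had 202 and 248 bp. Pooled, however, parts 2 to 7 had a median of 231 bp (133 intervals). Parts 1 and 8 to 10, which were less dense, had 159 bp (33 intervals). Intervals of at least 400 bp were spread much as all intervals were, with 17 of the 20 (85%) in parts 2 to 7, which held 80.1% of all. The widest interval, 965 bp at 69737276 to 69738240, lay 334.9 kb from the cluster start with a 495 bp interval just 146 bp before it. The next were 751 bp at 69916865 to 69917615, 718 bp at 69596339 to 69597056, 605 bp at 69729088 to 69729692 and 581 bp at 69922037 to 69922617. All 5 were on 1 line and all 5 lay in parts 2, 4 and 6. Part 4 had a median of 316 bp and part 5 one of 319 bp, the highest of the 10, while the last part, next to UGT2B4, had 155 bp.

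**Figure D3:**
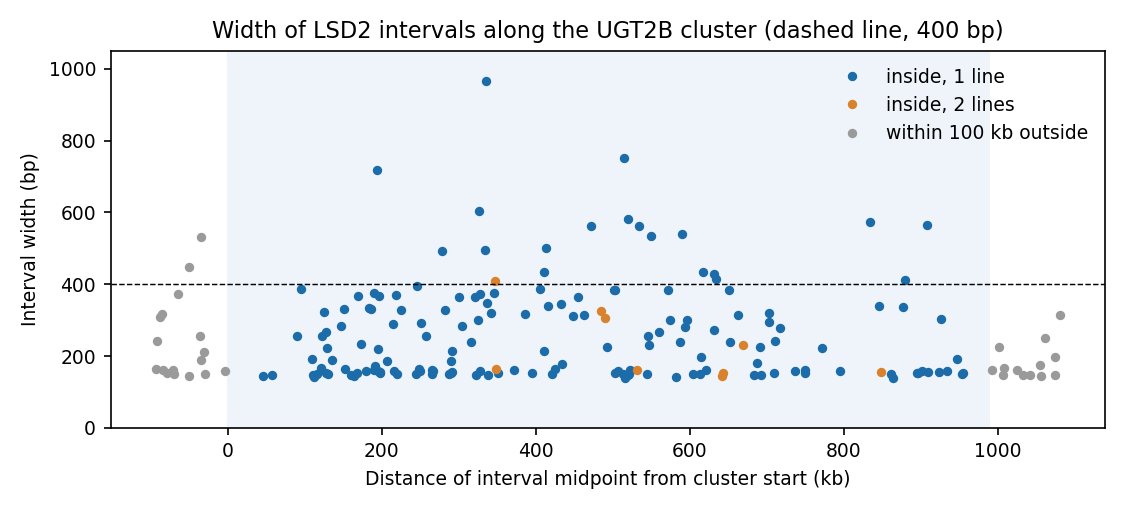
Width in bp (vertical axis) of each LSD2 interval against the distance of its midpoint from the start of the UGT2B cluster in kb (horizontal axis). Blue points are members on 1 line, orange points are the 9 members on 2 lines, grey points lie within 100 kb outside, and the dashed line is 400 bp. The first 45.8 kb and the last 34.4 kb of the shaded cluster are empty, and the widest interval, 965 bp, lies 334.9 kb from the start.

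**Figure D4:**
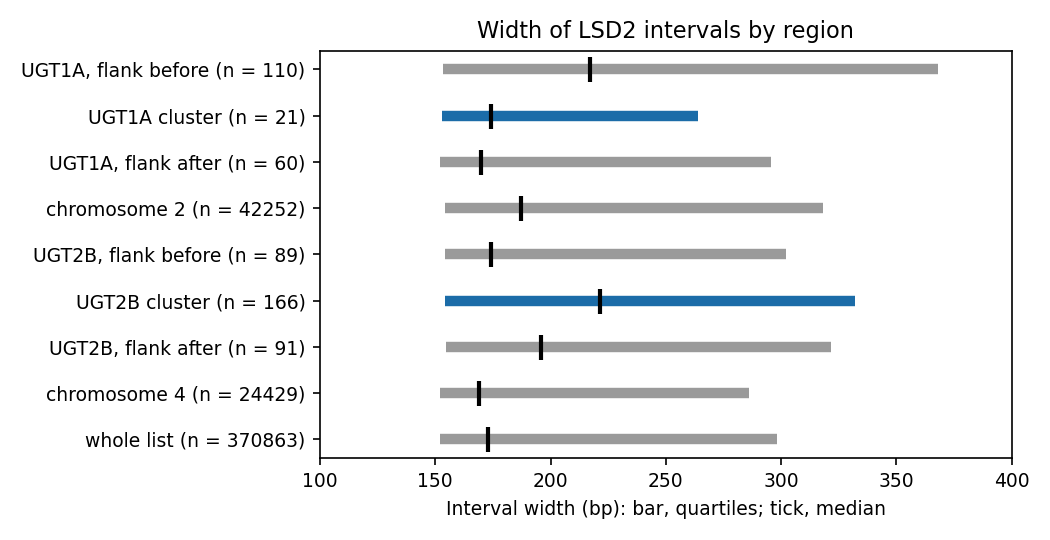
Width of LSD2 intervals in bp (horizontal axis) in each cluster, its flanks, its chromosome and the whole list, with n intervals beside each name. Bars run from the lower to the upper quartile and ticks mark the median. The UGT2B cluster has the highest median, 221.5 bp, and the flank before UGT1A is close to it at 217 bp. The UGT1A cluster, at 174 bp, is close to the whole list at 173 bp.

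Set side by side, the clusters differed most in line number, with medians of 6 lines for UGT1A and 1 line for UGT2B, and the ranges of 1 to 11 and 1 to 2 lines overlapped at 1 and 2. They differed little in covered sequence, at 3.31% and 4.43%. The intervals nearest the bounds do not decide these values. Just outside UGT1A the neighbours were 323 bp before the start and 5744 bp after the end, and just outside UGT2B they were 3320 bp before and 3425 bp after. Each of these 4 neighbours was on 1 line, with widths from 148 bp to 207 bp.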

How the data were processed

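The data were 1 LSD2 ChIP library and 1 input library from HepG2 cells, grouped by source name, and 1 list of peaks. Per the file headers, the authors trimmed reads, removed duplicates and ran MACS on LSD2 with input as control (read and fragment length 120 bp, effective genome 2700 Mb, p-value cutoff 1e-05, enrichment factor 32, local biases detected). The submitters' processing notes name BWA and hg19. The deposited values are start and end positions in bases, with no score, so strength and depth are unknown and counts limit the precision.

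Identical lines were counted once, with the number of lines kept (414095 lines, 370863 intervals). Starts were read as counting from 0 and are printed counting from 1. Chromosome and genome densities used sequence from first to last peak without peak-free stretches over 500 kb (2862 Mb). Poisson, Wilson and exact conditional binomial 95% intervals came from scipy 1.17.1, and promoters were aligned with biopython 1.88. No test was run, since each group had 1 library. Counting was checked on simulated data. The members, lists and the 5 widest intervals, densest bin and 3 longest stretches named per cluster were chosen with earlier results of these data known. Exons were to be placed with an hg19 annotation, and 10 equal parts of each cluster were used in its place. Planned protein sequences were not used here, and promoters were printed in their place. Alternatives are in the closing section.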

Additional observations from a re-analysis of the deposited data

How the results depend on the processing

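Of 69 alternative values, all planned, 53 stayed within the 95% counting interval of the reported value and 16 moved outside it. Counting every deposited line raised the UGT1A density ratio to 4.24 against the flanks, 4.16 against chromosome 2, 5.60 against the whole list and 4.57 against UGT2B. The ratio for the last of the 10 parts of UGT1A rose from 2.81 to 5.17, which stayed within its interval of 0.81 to 8.03. The repeated lines bring these rises by construction. Among intervals of at least the list's median width (173 bp), UGT2B stood at 1.53 times chromosome 4, with a median width of 323 bp and 42.4% of 10 kb bins empty. Among intervals of at least the 90th percentile of width (387 bp), 3 UGT1A and 22 UGT2B intervals were left. There the UGT1A median was 568 bp, all (100.0%) were on more than 1 line and the ratio for the last of the 10 parts was 0, since none lay in it. UGT2B then had a median of 516.5 bp, stood at 2.16 times chromosome 4 and 1.71 times the whole list, and had 81.8% of bins empty. Widths and empty bins of these sets move because intervals were removed. The cause of the higher UGT2B ratios was not tested. Empty UGT2B bins, 23.2% at 10 kb, were 45.5% at 5 kb and 12% at 20 kb, which follows from bin length. Merging intervals up to 100 bp apart, membership by any overlap and flanks of 250 kb or 1 Mb moved no value outside its interval. No paired analysis was possible because there was 1 ChIP and 1 input library. The UGT1A values rest on 21 intervals, and the unknown depth limits each count.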
